A study of Mus musculus with 4 samples.

Results

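The genes described here are 46 heat shock chaperones, cochaperones and subunits of the chaperonin TRiC, of 55367 genes in each count table. They were listed by name: 21 of the Hsp70 system, 9 of the Hsp90 system, 4 mitochondrial chaperones, 8 TRiC subunits, the heat shock factors *Hsf1* and *Hsf2*, the small heat shock gene *Hspb1* and the polyubiquitin gene *Ubb*. The list was chosen from gene names with the results of the comparison below already known, so its counts, fold changes and p-values describe these libraries and test nothing about the list. RNA was sequenced from peripheral CD4+ T cells of C57BL/6 spleens, with 2 libraries labelled WT and 2 labelled *Satb1* conditional knockout (cKO). For the cKO mice the design text gives *Satb1* F/F with ThPOK-cre, a driver that deletes the floxed gene once a T cell has taken the CD4 lineage. Whether the WT mice carried the floxed allele or the driver, and how old each mouse was, are not given in the labels. The study's text calls the duplicates biological replicates and describes young adult mice of mixed sexes. The comparison asks which of these genes differ between CD4+ T cells of mice labelled WT and of mice labelled as lacking *Satb1*, which encodes a DNA-binding genome organizer.

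Chaperones bind unfolded or partly folded proteins and help them reach their folded state. Hsp70 works with J-domain proteins, which bring clients and start ATP hydrolysis, and with nucleotide exchange factors of the Hsp110 and BAG families, which release ADP. Hsp90 takes up kinases, steroid receptors and other late folding clients through a cycle of cochaperones, and TRiC is a closed ring that folds actin, tubulin and other large proteins. *Hsf1* is the main factor that switches on stress-inducible chaperone genes. It binds heat shock elements, which are inverted repeats of the unit GAA. T cells make more of many chaperones when they are activated and grow.

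Gene counts came to 6555699 and 4495902 for the WT libraries and 5372419 and 4628467 for the cKO libraries, so that 3 counts of a gene, taken as the floor of detection, were 0.459 to 0.672 CPM. CPM here stands for counts of a gene scaled to a common total of counts in genes, on library sizes adjusted by TMM. *Satb1* itself had 5677 and 4390 counts in the libraries labelled WT and 4958 and 3986 in those labelled cKO, with a log2 fold change of −0.05 and an adjusted p of 0.877. Counts summed over all exons of a gene do not separate a deleted exon from the rest, so this does not check the labels, and the libraries are named here as labelled. *Foxp3*, the lineage factor of regulatory T (Treg) cells, had 926 and 538 counts in WT and 2127 and 2573 in cKO. *Xist*, expressed from the inactive X chromosome of females, had 5447 and 4235 counts in WT and 9 and 6 in cKO, whereas the Y-linked *Ddx3y* had 0 in both WT libraries and 525 and 597 in cKO. Sex and genotype labels therefore cannot be told apart in these 4 libraries. T cell markers summed to 5550.1 and 5522 CPM in WT and 5317 and 4954 CPM in cKO, with 1 of 7 called lower.

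Of the 46 members, 44 passed the filter on low counts, and 13 of these were called higher in the libraries labelled cKO at an adjusted p under 0.05. Over all 12403 tested genes, 4.30% were called, 2.35% higher and 1.95% lower. None of the 44 was called lower by edgeR or by DESeq2, while 3 members, *Hspbp1*, *Cdc37* and *Trap1*, had an unadjusted p under 0.05 in that direction. *Hspa1b* passed the filter only through the cKO libraries, where it is high, and without it 12 members were called. Both cKO libraries lay above both WT libraries for 22 tested members and below both for 8, against 24.8% and 25.4% of all tested genes. Members called higher were 6 of the 20 tested in the Hsp70 system and 7 of the 9 in the Hsp90 system. Neither the 4 mitochondrial chaperones nor the 8 TRiC subunits held a call. The median log2 fold change was 0.43 in the Hsp70 system and 0.69 in the Hsp90 system, against −0.0015 over all tested genes. For the mitochondrial chaperones it was 0.0012 and for TRiC −0.0019. Of the 25 tested members that share under 5% of their 50-base words with other genes and overlap no exon on the opposite strand, 6 were called higher, and their median was 0.14. Without WT 2, a fit with 1 WT library, *Hsph1* and *Dnaja1* were still called and no other member was. In that fit the log2 fold changes of the 13 called members ran from 0.51 for *Fkbp4* to 2.94 for *Hspa1b*, against 0.53 and 2.43 with all libraries. Without WT 1 the calls numbered 9, without cKO 1 17, of which 2 (*Hspa14* and *Cdc37*) were lower, and without cKO 2 15. The calls among all genes moved too, from 533 to 180 without WT 2, 465 without WT 1, 1491 without cKO 1 and 1790 without cKO 2.

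**Figure D1:**
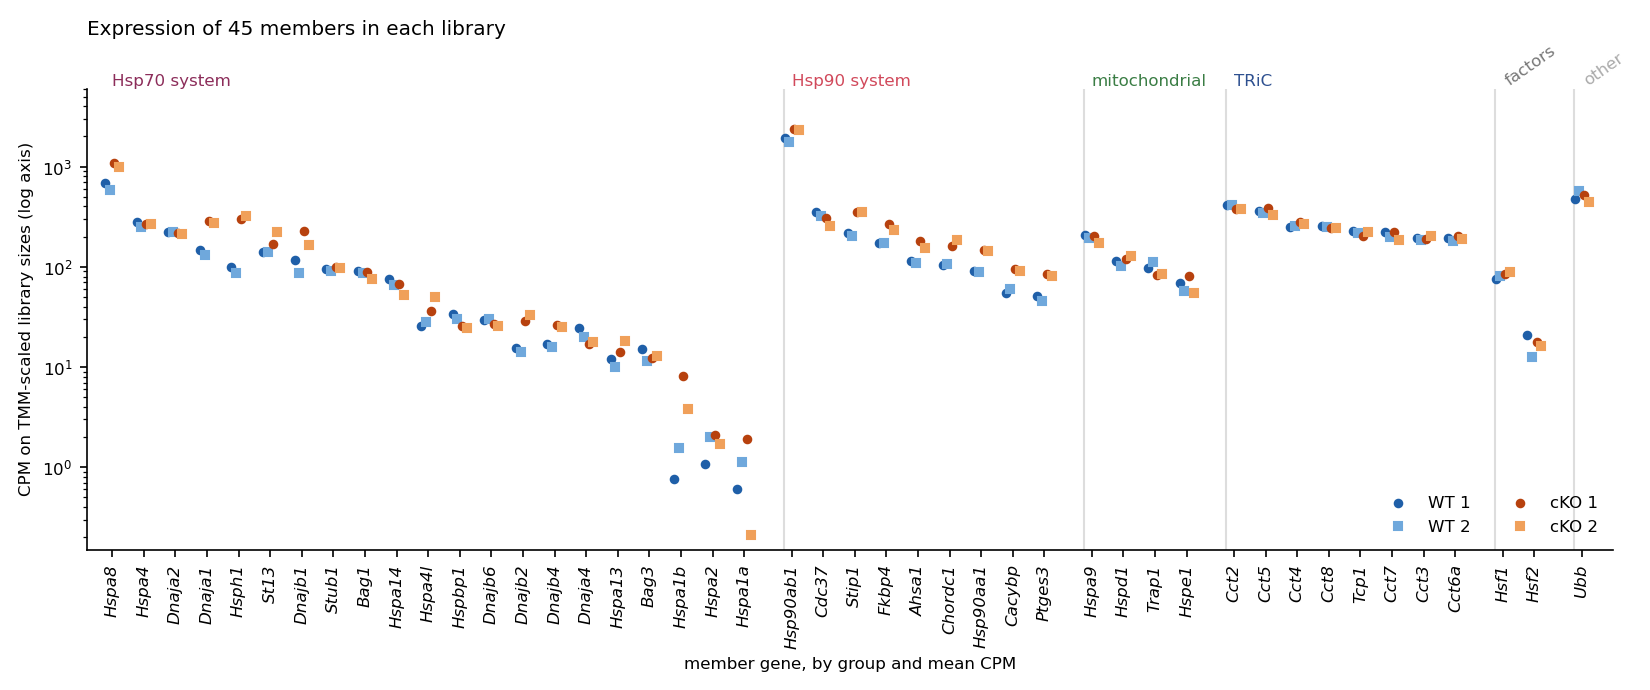
CPM on a log axis for the 45 members with a count in every group, ordered within each role group by mean CPM, with WT 1 and WT 2 in blue and cKO 1 and cKO 2 in orange. *Hspa8*, *Dnaja1*, *Hsph1* and most of the Hsp90 system show both cKO points above both WT points, and the 8 TRiC subunits show 4 points close together.

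In the Hsp70 system, *Hsph1* had the lowest p of all tested members. *Hsph1* encodes an Hsp110 protein that exchanges the nucleotide of Hsp70, and lies at chr5:149614287-149636376 on the minus strand of GRCm38. It measured 98.8 CPM in WT 1, 86.0 CPM in WT 2, 298 CPM in cKO 1 and 320.3 CPM in cKO 2. The groups were far apart, with each cKO value above both WT values and the 2 libraries of a group close to each other. *Hsph1* rose 3.33-fold (95% interval 2.81 to 3.96), a log2 fold change of 1.74 ± 0.11 (SE, n = 2 per group) with an edgeR adjusted p of 0.000106. It ranked 11 of 12403 tested genes by p, and shares none of its 50-base words with another gene of the annotation. Leaving out each library in turn gave log2 fold changes of 1.64 to 1.85. The other Hsp110 genes divided. *Hspa4*, at 278.8 and 250.05 CPM in WT and 265.3 and 265.5 CPM in cKO, had a log2 fold change of 0.00 (interval −0.22 to 0.23). *Hspa4l*, the gene with the lowest level of the 3, had 25.4 and 28.2 CPM in WT and 36.2 and 49.7 CPM in cKO, without overlap, and a log2 fold change of 0.68 with an adjusted p of 0.0734, or 0.00077 without cKO 1 and 0.0654 to 0.239 without each other library. Per kb of exonic length, *Hsph1* stood at 0.270 and 0.262 of the level of *Hspa4* in WT and at 0.854 and 0.918 of it in cKO.

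Promoter sequences are shown for *Hsph1* and for the 2 other called members of the Hsp70 system whose window held a heat shock element, since these are letters that *Hsf1* is known to bind. The windows are those of RefSeq on GRCm38.p6, from 250 bases before to 50 bases after a start site. Capitals mark the element and positions count from the first transcribed base as 1, with −1 just before it. The stretch printed for *Hsph1* spans 8 to 36 (chr5:149636280-149636308, minus strand), that for *Dnaja1* −139 to −102 (chr4:40722329-40722366, plus strand) and that for *Hspa1b* −119 to −82 (chr17:34959320-34959357, minus strand).
Hsph1: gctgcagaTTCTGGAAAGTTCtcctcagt
Dnaja1: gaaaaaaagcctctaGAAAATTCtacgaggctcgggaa
Hspa1b: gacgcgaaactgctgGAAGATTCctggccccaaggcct
The *Hsph1* stretch holds 3 alternating units, TTC, GAA and TTC, each 2 bases from the next, and those of *Dnaja1* and *Hspa1b* hold 2. *Dnaja1* has 3 windows in the table, of which the other 2 held no element, and from a second start site of *Hsph1* the stretch begins at 29.

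Among the Hsp70s, *Hspa8* encodes the constitutive Hsc70 and was the most abundant member of the system by CPM and by CPM per kb, with 30.8% to 36.4% of its summed CPM in each library. Its level was 687 and 588 CPM in WT and 1099 and 999 CPM in cKO. Both cKO values lay well above both WT values, and *Hspa8* rose 1.64-fold (interval 1.354 to 1.997), with a log2 fold change of 0.72 ± 0.12 and an adjusted p of 0.0155. Of the 50-base words of *Hspa8*, 39.4% also occur in other genes, most of them in the pseudogene *Gm15459*, so reads may be lost or misplaced there. *Hspa1b*, the stress-inducible Hsp70 at chr17:34956436-34959238, had 5 and 7 counts in WT and 43 and 18 in cKO. These came to 0.765 and 1.57 CPM against 8.19 and 3.83 CPM, low values with cKO 1 well above cKO 2 and no overlap. *Hspa1b* rose with a log2 fold change of 2.43 ± 0.55 (interval 1.19 to 3.67, adjusted p = 0.0440). Its near-identical neighbour *Hspa1a* had 4, 5, 10 and 1 counts in the same order and was not tested. Since 62.3% of the words of *Hspa1b* are also in *Hspa1a*, their split is uncertain, and together they had 9 and 12 counts in WT and 53 and 19 in cKO. Without WT 2 the call of *Hspa8* was lost, with a log2 fold change of 0.61 against 0.72 with all libraries. The call of *Hspa1b* was lost without WT 1, without WT 2 and without cKO 1, with adjusted p of 0.0963 to 0.115, and its log2 fold change ran from 1.77 without cKO 1 to 2.94 without WT 2. *Hspa2*, best known from male germ cells, was close to the floor at 1.071 to 2.096 CPM, and its log2 fold change of 0.36 had an interval of −0.79 to 1.51. *Hspa13*, an Hsp70 of the endoplasmic reticulum, had 11.9 and 10.1 CPM in WT and 14.1 and 18.3 CPM in cKO, with an adjusted p of 0.244. For the ribosome-associated *Hspa14* the values overlapped, at 75.1 and 66.3 CPM in WT and 66.9 and 52.5 CPM in cKO, but without cKO 1 *Hspa14* was called lower at an adjusted p of 0.0392 (0.692 to 0.896 without each other library).

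Of the 7 genes of J-domain proteins, 3 were called higher and none lower by edgeR or DESeq2, and none had an unadjusted p under 0.05 in the lower direction. *Dnaja1*, a class A partner of Hsp70 at chr4:40722150-40737149, had 148 and 131 CPM in WT and 288 and 275 CPM in cKO. That is a clean separation, and *Dnaja1* rose 2.02-fold (interval 1.71 to 2.37, adjusted p = 0.00148). Leaving out any 1 library kept its call, with adjusted p no higher than 0.0281. *Dnaja2*, another class A gene, stayed within 211 to 224 CPM in all libraries (log2 fold change −0.06, interval −0.27 to 0.15). *Dnajb1*, the J-domain protein that works with inducible Hsp70, had 117 and 85.8 CPM in WT and 228 and 166 CPM in cKO. Its libraries spread more within each group, but the groups did not overlap, and it rose 1.93-fold (interval 1.453 to 2.565, adjusted p = 0.0233). *Dnajb2*, which also carries ubiquitin-binding motifs, had 15.4 and 14.1 CPM in WT and 29.0 and 33.2 CPM in cKO. It rose 2.09-fold (interval 1.60 to 2.72, adjusted p = 0.0113). *Dnajb4* was at 17.1 and 15.9 CPM in WT and 26.1 and 25.3 CPM in cKO, a log2 fold change of 0.63 that did not pass at an adjusted p of 0.0722. Both cKO libraries lay below both WT libraries for *Dnajb6*, a suppressor of protein aggregation, and for *Dnaja4*, with log2 fold changes of −0.19 and −0.37 and adjusted p of 0.525 and 0.329. The *Dnaja4* exons share 42.7% of their words with *Wdr61* on the opposite strand, and those of *Dnaja1* overlap *Smu1* and *Gm6297* over 857 bases, so reads of such partners cannot be told apart where strand was not used. Of the words of *Dnaja1*, 20.55% recur in other genes, with *Gm15542* sharing the most. Without WT 2, *Dnajb1* and *Dnajb2* were no longer called, at adjusted p of 0.155 and 0.0834, and without cKO 2 *Dnajb4* was, at 0.0179 (0.0570 to 0.420 without each other library).

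The 5 cochaperones that set the Hsp70 cycle held no call by edgeR or DESeq2, with 1 gene higher and 1 lower at an unadjusted p under 0.05. *St13*, which encodes Hip and slows the release of ADP, was the higher one. It had 139 CPM in each WT library and 168 and 224 CPM in cKO, with no overlap, a log2 fold change of 0.49 and an adjusted p of 0.0889, or 5.89e-05 without cKO 1 and 0.0539 to 0.410 without each other library. The lower one was *Hspbp1*, a nucleotide exchange factor, at 33.5 and 30.0 CPM in WT and 25.7 and 24.7 CPM in cKO (log2 fold change −0.34, adjusted p = 0.253). Both exchange factors of the BAG family, *Bag1* and *Bag3*, had log2 fold changes of −0.11 with overlapping libraries. *Stub1*, which encodes the ubiquitin ligase CHIP, lay within 90.3 to 99.9 CPM throughout. Summed over all 21 members, the Hsp70 system came to 2127 and 1912 CPM in WT and 3016 and 2901 CPM in cKO, or 1.49 and 1.44 times the WT mean. The median log2 fold change of its tested members was 0.43, and 0.36 without *Hspa1b*.

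**Figure D2:**
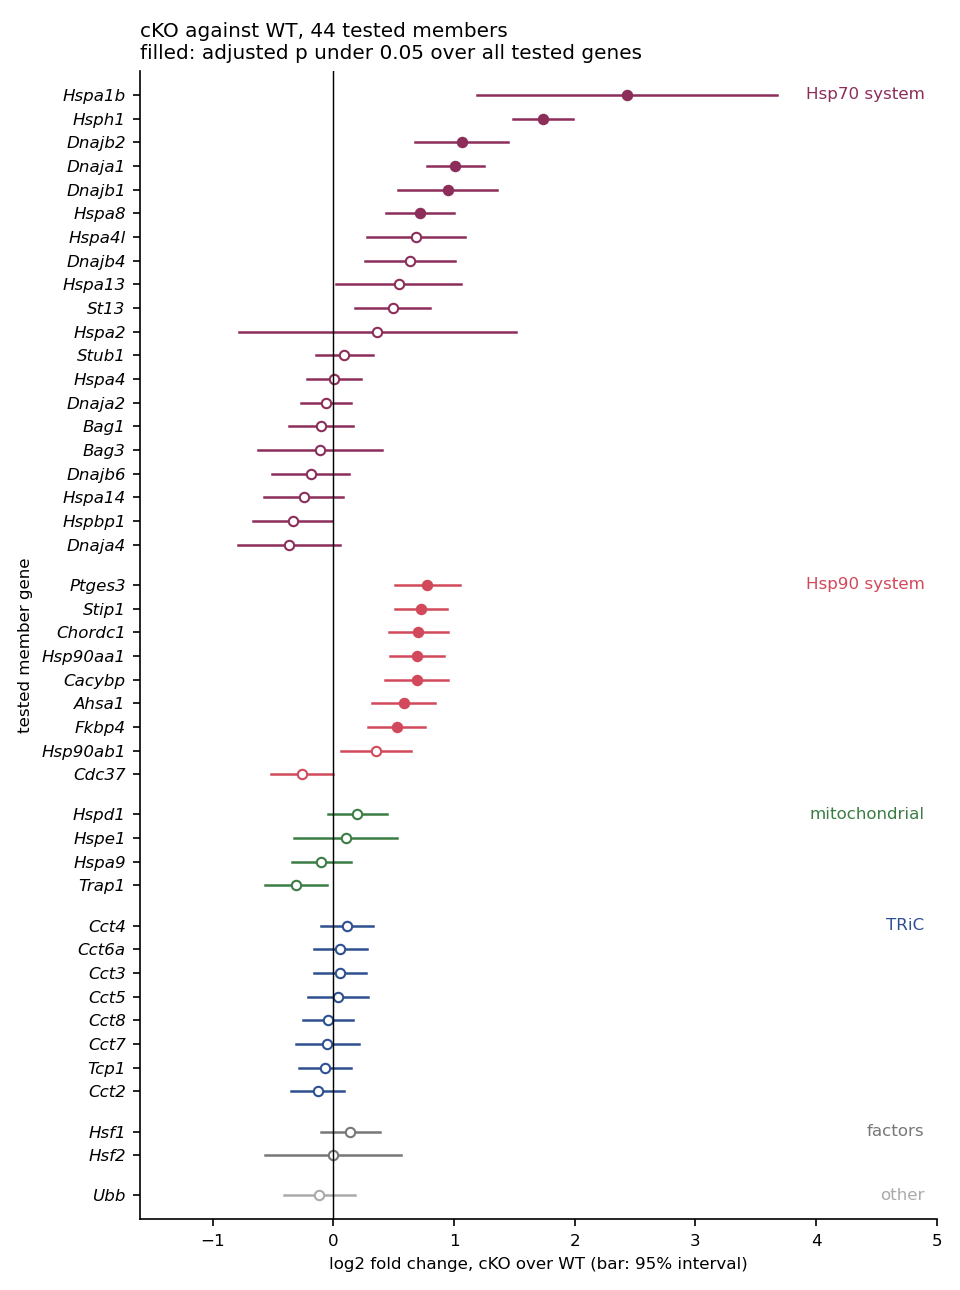
Log2 fold change of cKO over WT for each of the 44 tested members, grouped by role, with bars for the 95% interval of the edgeR fit and filled circles for an adjusted p under 0.05. The 13 filled circles are all to the right of 0 and belong to the Hsp70 and Hsp90 systems, and the TRiC intervals lie between −0.35 and 0.33.

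In the Hsp90 system no gene had overlapping groups. Of its 9 genes, 8 had both cKO libraries above both WT libraries and 1 had both below, against 24.8% and 25.4% of all tested genes. *Hsp90ab1*, the constitutive Hsp90, was the most abundant of all members by CPM and by CPM per kb, with 60.0% to 62.6% of the system's CPM in each library. It had 1934 and 1753 CPM in WT and 2388 and 2323 CPM in cKO. The 2 groups were apart, yet the log2 fold change of 0.35 ± 0.13 (interval 0.06 to 0.65) did not pass, at an adjusted p of 0.181. It passed without cKO 1 or without cKO 2, at 0.0145 and 0.00266, and did not without WT 1 or without WT 2, at 0.592 and 0.836. *Hsp90aa1*, the stress-inducible Hsp90 at chr12:110690605-110702728, had 90.4 and 88.3 CPM in WT and 146 and 143 CPM in cKO. The libraries of each group lay close together, and *Hsp90aa1* rose 1.62-fold (interval 1.38 to 1.89, adjusted p = 0.00738). The pseudogene *Gm12346* holds 41.8% of its words. Per kb of exonic length *Hsp90ab1* was 28.04 and 26.03 times as high as *Hsp90aa1* in WT, and 21.5 and 21.3 times in cKO.

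Of the 7 Hsp90 cochaperones, 6 were called higher. *Chordc1* and *Fkbp4* are shown first with the promoter stretches that hold their elements, at −7 to 22 for *Chordc1* (chr9:18292260-18292288, plus strand) and at −166 to −129 for *Fkbp4* (chr6:128438785-128438822, minus strand), with capitals as above.
Chordc1: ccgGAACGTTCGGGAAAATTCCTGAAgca
Fkbp4: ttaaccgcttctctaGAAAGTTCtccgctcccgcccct
In *Chordc1* the units continue without a break, so that the stretch holds 3 overlapping elements of 3 units across the start site, while *Fkbp4* has 1 of 2 units. *Chordc1*, an Hsp90-binding protein with CHORD zinc-binding domains, had 104 and 108 CPM in WT and 161 and 184 CPM in cKO, and rose 1.63-fold (interval 1.37 to 1.93, adjusted p = 0.0100). *Fkbp4*, the immunophilin of steroid receptor complexes, had 175 and 173 CPM in WT and 267 and 233 CPM in cKO, and rose 1.44-fold (interval 1.22 to 1.69, adjusted p = 0.0267). In both genes the lowest cKO library was well above the highest WT library.

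*Stip1*, which encodes Hop and bridges Hsp70 to Hsp90, had 219 and 205 CPM in WT and 350 and 351 CPM in cKO. *Stip1* rose 1.65-fold (interval 1.42 to 1.92, adjusted p = 0.00511). *Ptges3*, the p23 cochaperone that holds Hsp90 in its closed state, had 50.8 and 45.7 CPM in WT and 85.2 and 81.0 CPM in cKO. At 1.72-fold (interval 1.43 to 2.07, adjusted p = 0.00929) it had the largest rise of the 9 genes. *Cacybp*, which binds S100 proteins and the ubiquitin ligase Siah1, had 54.3 and 60.3 CPM in WT and 94.1 and 90.1 CPM in cKO (1.61-fold, interval 1.35 to 1.93, adjusted p = 0.0129). *Ahsa1*, the activator of the Hsp90 ATPase, had 114 and 110.0 CPM in WT and 183 and 154 CPM in cKO. It rose 1.498-fold (interval 1.25 to 1.79, adjusted p = 0.0263). The 4 genes share the pattern of tight WT libraries and cKO libraries that do not reach down to them. *Cdc37*, which brings kinases to Hsp90, was the exception, at 349 and 325 CPM in WT and 305 and 257 CPM in cKO (log2 fold change −0.26, interval −0.52 to −0.0037, adjusted p = 0.257), although without cKO 1 it was called lower at 0.00441 (0.312 to 0.787 without each other library). Summed, the 9 genes came to 3090 and 2868 CPM in WT and 3979 and 3816 CPM in cKO, or 1.34 and 1.28 times the WT mean. Without WT 2 none of the 7 calls of the system remained, with adjusted p of 0.0940 to 0.295, while the log2 fold changes of these 7 genes stayed between 0.51 and 0.76. Without WT 1 the calls of *Ahsa1*, *Cacybp* and *Fkbp4* were lost, at 0.0519, 0.0901 and 0.106.

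The mitochondrial chaperones did not move as a group. *Hspd1* and *Hspe1*, the Hsp60 ring and its Hsp10 lid, start from opposite strands at chr1:55077835-55088243 (minus) and chr1:55088132-55091307 (plus), and their exons overlap by 112 bases. The elements of both genes lie in the same 48 bases, chr1:55088044-55088091, within the bounds of *Hspd1*. They are read here once from each strand, at −104 to −57 of *Hspe1* and −159 to −112 of 1 of the 2 *Hspd1* start sites, and the window of the other *Hspd1* start site held none.
Hspe1: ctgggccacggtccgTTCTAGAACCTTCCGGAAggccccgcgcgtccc
Hspd1: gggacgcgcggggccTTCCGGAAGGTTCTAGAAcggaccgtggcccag
Each strand reads as 2 overlapping elements of 3 units, since 4 units follow one another. *Hspd1* had 113 and 103 CPM in WT and 119 and 129 CPM in cKO, and *Hspe1* had 69.3 and 56.9 CPM in WT and 81.0 and 54.6 CPM in cKO. *Hspd1* kept its groups apart by a small margin (log2 fold change 0.20, interval −0.05 to 0.44, adjusted p = 0.361), and *Hspe1* did not (0.10, interval −0.32 to 0.52). *Hspa9*, the mitochondrial Hsp70, had 208 and 194 CPM in WT and 201 and 174 CPM in cKO, with overlap. *Trap1*, the mitochondrial Hsp90, had 97.1 and 111 CPM in WT and 83.3 and 84.4 CPM in cKO (log2 fold change −0.31, interval −0.56 to −0.05, adjusted p = 0.179). The 4 genes held no call by edgeR or DESeq2, and *Trap1* alone had an unadjusted p under 0.05. Their sum was 487 and 464 CPM in WT and 484 and 442 CPM in cKO. Counts of *Hspd1* and *Hspe1* are uncertain, as 42.1% and 22.8% of their words recur in other genes, mostly *Hspd1-ps3* and *AC117239.2*.

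TRiC subunits had the narrowest range of fold changes of the 4 role groups. All 8 lay within a log2 fold change of −0.13 to 0.11, no subunit was called by edgeR or DESeq2, and none had an unadjusted p under 0.05. The ends of the range were *Cct2*, with 418 and 409 CPM in WT and 376 and 380 CPM in cKO, and *Cct4*, with 248 and 255 CPM in WT and 278 and 265 CPM in cKO. Both kept their groups apart, and both intervals included 0. The 95% intervals of the 8 subunits ran from −0.35, the lower bound of *Cct2*, to 0.33, the upper bound of *Cct4*. *Tcp1*, the subunit that gave the complex its name, had 227 and 219.6 CPM in WT and 205 and 221 CPM in cKO (log2 fold change −0.07). *Cct8* varied least of all members, with a standard deviation of 1.98% of its mean over the 4 libraries. *Cct3*, *Cct5*, *Cct6a* and *Cct7* overlapped between groups, with log2 fold changes of 0.05, 0.04, 0.06 and −0.05. Summed TRiC was 2112 and 2038 CPM in WT and 2100 and 2019 CPM in cKO. Although the subunits are built into the ring in equal number, their levels per kb of exonic length differed, from a WT mean of 162 CPM per kb for *Cct2* to 29.6 CPM per kb for *Cct3*, and from a cKO mean of 148 CPM per kb for *Cct2* to 30.01 CPM per kb for *Cct7*. Exonic length here joins the exons of every annotated transcript, so a gene with long rare transcripts reads low on this scale.

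**Figure D3:**
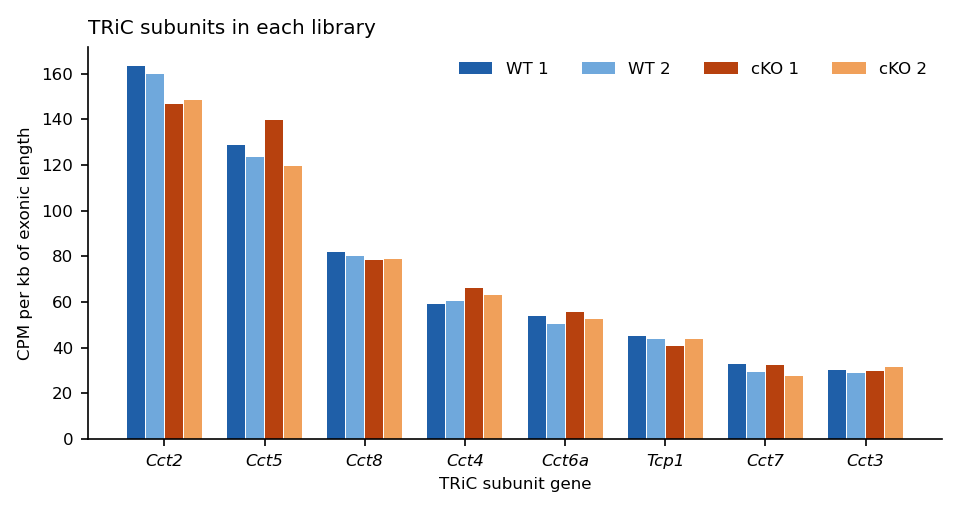
CPM per kb of exonic length for the 8 TRiC subunits, 1 bar per library, in order of mean level. The bars of a subunit are nearly level across WT 1, WT 2, cKO 1 and cKO 2, and the subunits range from 162 CPM per kb for *Cct2* to 29.6 CPM per kb for *Cct3* as WT means.

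Both heat shock factors gave values near no change, with no call by edgeR or DESeq2 and no unadjusted p under 0.05. *Hsf1*, which drives the stress response, had 76.0 and 81.1 CPM in WT and 84.4 and 88.6 CPM in cKO. The groups were apart by a narrow gap, and the log2 fold change of 0.14 had an interval of −0.10 to 0.39. *Hsf2*, a relative that can pair with *Hsf1*, had 20.8 and 12.5 CPM in WT and 17.7 and 16.2 CPM in cKO (log2 fold change −0.00, interval −0.57 to 0.56). These are transcript levels and say nothing of where the proteins were bound. *Hspb1*, a small heat shock gene, had 0 counts in both WT libraries and 1 in each cKO library, under the floor of 3 counts, so no difference was detectable. The polyubiquitin gene *Ubb*, a source of free ubiquitin under stress, had 475 and 573 CPM in WT and 521 and 444 CPM in cKO, with overlap and a log2 fold change of −0.12 (interval −0.41 to 0.18).

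Promoter windows in the RefSeq table were found for 38 of the 46 members. Those without one were *Hspa8*, *Hspa13*, *St13*, *Hsp90aa1*, *Hsp90ab1*, *Hspa9*, *Cct4* and *Hsf1*. The 3-unit element was searched as GAANNTTCNNGAA or TTCNNGAANNTTC, which are each other's reverse complement, and the 2-unit element as GAANNTTC or TTCNNGAA. Overlapping matches were counted, a 3-unit match always contains 2-unit ones, and a gene counts once over all its windows. The 3-unit element was in 5 of the 38, or 13.2%, against 179 of 27025 genes in the table, or 0.662%. The genes were *Hsph1*, *Chordc1*, *Dnajb6*, *Hspd1* and *Hspe1*. Some element of 2 units was in 18 of the 38, or 47.4%, against 17.0% of all genes. Among tested genes the shares were 13.9% of 36 members against 0.539% of 8899 genes for 3 units, and 44.4% against 13.9% for 2. TATAAA on either strand was in 1 member, *Stip1*, or 2.63% against 15.7% of all genes (among tested genes, 2.78% of members against 8.02%), and CCAAT on either strand in 44.7% against 41.1%.

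Called members occurred with and without an element. Of the 5 tested members with 3 units, 2 were called higher (*Hsph1* and *Chordc1*) and 3 were not. Of 11 with 2 units only, 3 were called higher, and of 20 with neither, 6 were. One of those with 2 units is *Hspa1b*, which passed the filter only through the cKO libraries, and without it 2 of 10 were called. The medians of the log2 fold changes in the 3 classes were 0.20, 0.06 (0.05 without *Hspa1b*) and 0.0001. *Dnajb6* shows a 3-unit element without a rise, having 29.4 and 30.5 CPM in WT and 26.7 and 25.7 CPM in cKO. The stretch with its element, at −61 to −19 of 1 of its start sites (chr5:29735837-29735879, plus strand), is printed because the match is as complete as that of *Hsph1*.
Dnajb6: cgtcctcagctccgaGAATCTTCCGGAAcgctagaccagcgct
Outside the members, 43 tested genes had a 3-unit element, of which 1 was called higher and none lower. With 2 units only, 24 of 1182 were called higher and 30 lower, and with neither, 176 of 7638 higher and 143 lower. A match is a run of letters in a window and not a bound site, and a window without one says nothing of elements elsewhere.

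**Figure D4:**
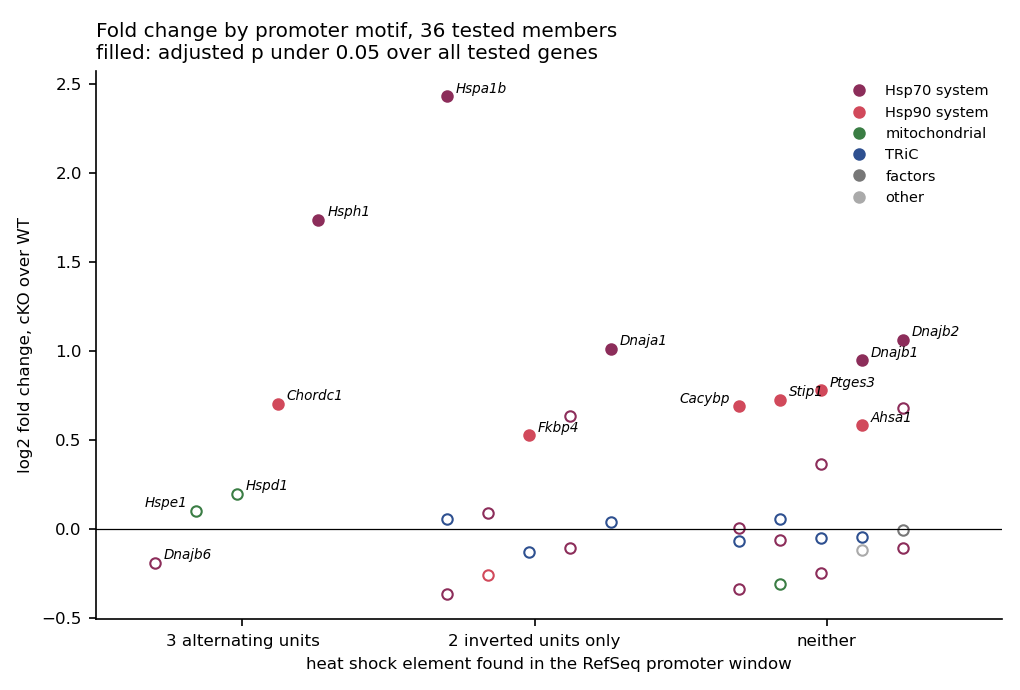
Log2 fold change of the 36 tested members with a promoter window, by the heat shock element found there, with colours for the role group and filled circles for an adjusted p under 0.05. Filled circles occur in each of the 3 classes: 2 of 5 with 3 units, 3 of 11 with 2 units only (2 of 10 without *Hspa1b*) and 6 of 20 with neither.

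A further list held 61 genes of the same machinery that are not members, also drawn up with results of these data known. Of these 54 were tested, and none was called by edgeR or DESeq2, with 1 higher and 2 lower at an unadjusted p under 0.05. Their median log2 fold change was −0.02. The 17 tested Hsp90 cochaperones among them had a median of −0.06 and included the 2 lower genes, the phosphatase *Ppp5c* (log2 fold change −0.50, adjusted p = 0.0633) and *Nudcd2* (−0.56, adjusted p = 0.141). The higher one was *Ubqln1*, a ubiquitin-like shuttle, at 0.24 with an adjusted p of 0.199. The 9 genes of prefoldin, which passes actin and tubulin to TRiC, and TRiC helpers had a median of −0.04, the 13 other Hsp70 partners 0.0033 and the 8 mitochondrial genes −0.05. The count was also 0 without WT 1 and without WT 2, whereas without cKO 1 it was 1 higher and 3 lower, and without cKO 2 1 higher and 2 lower, in fits that also called 1491 and 1790 of all genes. *Ppp5c* was among the lower genes in both, and also with no filter on low counts and with the replicate block.

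The sums of some other gene lists differed between the labels too. Over all tested genes, 2.35% were called higher and 1.95% lower. Treg markers summed to 420 and 339 CPM in WT and 763 and 995 CPM in cKO, with 3 of 6 called higher. B cell markers summed to 13.9 and 13.7 CPM in WT and 53.7 and 22.5 CPM in cKO, with 1 of 3 tested called higher, *Pax5*. With 0.765 and 0.896 CPM in WT, *Pax5* passed the filter only through the cKO libraries, where it is high. Myeloid markers, at 30.7 and 39.4 CPM in WT and 104 and 59.1 CPM in cKO, had 3 of 8 called higher. The called *S100a9*, with 0 and 0.224 CPM in WT, likewise passed the filter only through the cKO libraries. Of these markers *S100a8* and *S100a9* were at 0 in WT 1, and *Itgam* had both cKO libraries below both WT libraries. CD8 and NK cell markers summed to 82.9 and 93.0 CPM in WT and 44.6 and 40.6 CPM in cKO, with 2 of 5 tested called lower, *Cd8b1* and *Nkg7*. In bulk RNA a lower share of cells of one type and less RNA per cell cannot be told apart. Markers of activated or dividing T cells came to 789 and 772 CPM in WT and 706 and 701 CPM in cKO, with 3 of 7 called higher (*Cd69*, *Tnfrsf4* and *Tnfrsf18*). In this list 3 genes had an unadjusted p under 0.05 in the lower direction, the division genes *Mki67* and *Top2a* (log2 fold changes −1.44 and −1.41, adjusted p of 0.0602 and 0.0601) and *Myc* (−0.46, adjusted p = 0.136). Naive T cell markers came to 5499.7 and 6119 CPM in WT and 6381 and 4589 CPM in cKO, with 1 of 5 called higher and 1 lower. Immediate early genes, which rise while tissue is handled, came to 1727 and 1643 CPM in WT and 1833 and 1641 CPM in cKO. None of the 12 tested was called by edgeR or DESeq2, with 2 higher and 2 lower at an unadjusted p under 0.05. Erythroid markers ranged from 10.1 to 309 CPM with overlap and no call by either tool, nor an unadjusted p under 0.05. Not every marker followed its sum. Both cKO libraries lay above both WT libraries for 5 of 6 Treg, 2 of 3 tested B cell and 5 of 8 tested myeloid markers, against 24.8% of all tested genes. In cKO 2 the B cell gene *Cd79b* was at 4.89 CPM, below both WT libraries. Sex and the sums of Treg, B cell and myeloid markers followed the same labels as *Hsph1* and the called Hsp90 cochaperones. Their part in the chaperone values was not tested.

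**Figure D5:**
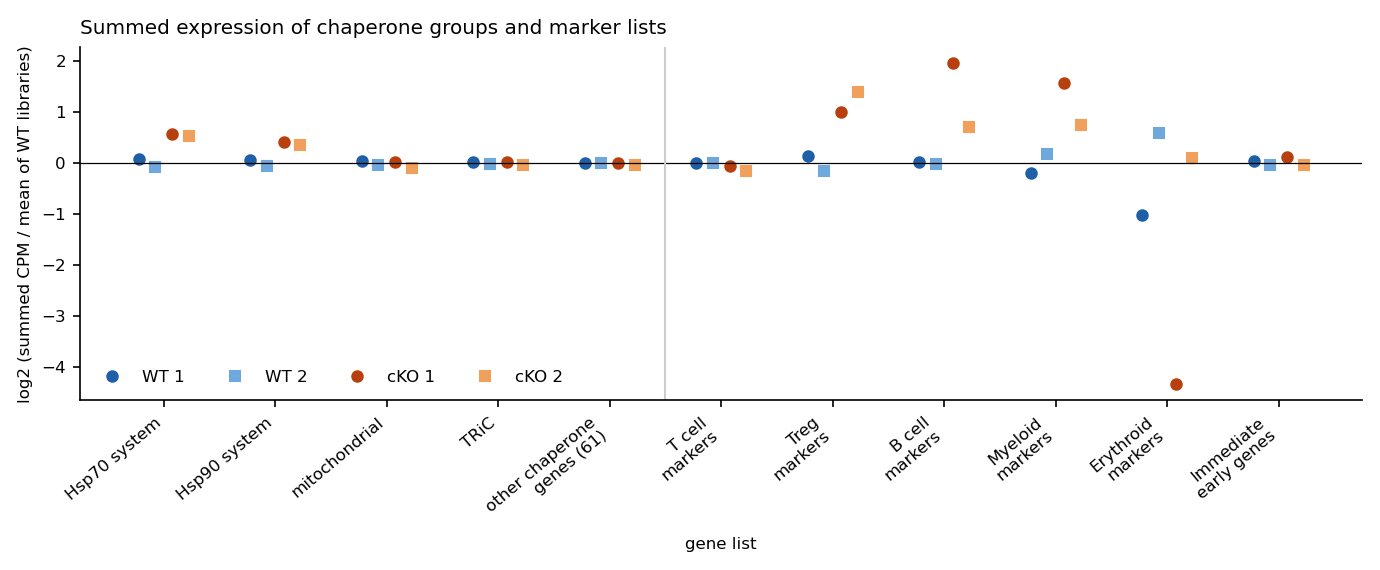
Log2 of summed CPM over the mean of the WT libraries, for 4 chaperone groups, 61 other chaperone genes and 6 marker lists, with 1 point per library. The Hsp70 and Hsp90 systems have both cKO points above both WT points, TRiC and the mitochondrial chaperones stay near 0, and the Treg, B cell and myeloid sums are higher in both cKO libraries.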

How the data were processed

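Purified CD4+ T cell RNA was made into libraries with a NEBNext kit and read as 50-base reads. Per the submitters' processing notes, the authors aligned reads to mm10 with HISAT2 2.1.0 and counted them per gene with HTSeq 0.11.1. The deposited values are raw counts, 1 table per library. The annotation and strand setting of the counting are not given in the sources used here. Reads outside any feature were 59.4% to 64.5% of the reads placed at a single site in each library, and rows that name no gene were left out of library sizes and tests. Reads that match several places are not in the gene counts, which lowers genes with near-identical copies.

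Counts were filtered with filterByExpr (minimum count 10), scaled by TMM and tested with the quasi-likelihood test of edgeR 4.0.16 in R 4.3.3, two-sided, over all 4 libraries with genotype as the only term, as the study used edgeR with duplicates. P-values were adjusted by Benjamini-Hochberg over all 12403 tested genes and called under 0.05. The common biological coefficient of variation was 10.3%. The 2 libraries per group are biological replicates per the study's text. P-values and intervals rest on the spread between them, which the fit draws for each gene toward that of other genes at a similar level. Intervals are 95% intervals of the fit. The code was tested on simulated data with known changes.

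Gene positions, exonic lengths, overlaps and 50-base words shared between transcripts came from GENCODE M21 on GRCm38, the build named mm10, and promoter windows from RefSeq on GRCm38.p6. Alternatives were DESeq2 1.42.0, RLE scaling, other filters on low counts, thinning to the smallest total, a replicate block and leaving out each library. Every member could be named. Values in each library were given for called members, the 3 with the largest change and the most abundant 1 in each group, and the factors. The members and all gene lists were chosen with earlier results of these data known.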

Additional observations from a re-analysis of the deposited data

How the results depend on the processing

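The 13 members called with all 4 libraries were called as well with DESeq2, with RLE factors, with a filter of 1 CPM, after thinning, without a filter and with the replicate block. The count of members was 13 in the first 4 of these, 17 without a filter and 16 with the replicate block. *Hspa4l*, *Dnajb4* and *St13* were gained both without a filter and with the replicate block, and *Hsp90ab1* without a filter only. Leaving out 1 library gave 2 to 17 members and 180 to 1790 of all genes (533 with all libraries), the lowest without WT 2. All genes called numbered 1367 without a filter and 1165 with the replicate block. Deviations of same-numbered libraries correlated at 0.0642 across genes, so the numbers were not taken as pairs. Median log2 fold changes after thinning were 0.38 in the Hsp70 system and 0.65 in the Hsp90 system. With 1 library left out they ran from 0.31 to 0.61 (Hsp70 system), 0.62 to 0.70 (Hsp90 system), −0.22 to 0.11 (mitochondrial) and −0.0305 to 0.0583 (TRiC). The share of member promoters with an element was 13.2% for 3 units and 47.4% for 2 inverted units. Of the other pathway genes, 2 were called without a filter, 1 with the replicate block and 0 to 4 with a library left out, alternatives that were chosen after seeing the data. The log2 fold change of *Hsf2* changed sign with DESeq2 (0.0139), RLE factors (0.000357), thinning (0.0776) and the replicate block (0.0306), and ran from −0.30 to 0.44 with a library left out. *Hspa4* turned without a filter (−0.00173) and *Bag3* after thinning (0.0111). Leaving out a library turned *Hspa4* (−0.0754 to 0.0921), *Bag1* (−0.22 to 0.00102), *Bag3* (−0.28 to 0.13), *Hspa9* (−0.21 to 0.000565), *Hspe1* (−0.22 to 0.35), *Cct5* (−0.0792 to 0.15), *Cct7* (−0.18 to 0.0679) and *Ubb* (−0.24 to 0.0188). None of these was called with all libraries. Of 437 values of the 44 tested members under these alternatives, 389 kept direction and call status, 16 kept direction and lost the call, 14 gained a call and 18 changed sign. The cause was not tested. Counts under 3 in a library do not tell a gene from absent.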
